A study of Rattus norvegicus with 4 samples.

Results

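Gene expression with retinoic acid and forskolin was compared with the DMSO control in hippocampal progenitor cells of Fisher 344 rats. The comparison subtracted the log2 value on the DMSO array from that on the retinoic acid array for all 14217 named genes of 31099 probe sets, and 8535 of these genes were above the floor of log2 = 5 on at least 1 of the 2 arrays. A gene with several probe sets took the one with the highest mean over the 4 arrays of the series, and lower values were raised to the floor, below which these arrays were taken to hold no specific signal. Such genes are called measured here. A measured gene was called higher or lower once the 2 arrays were 2-fold apart, which is a log2 difference of 1.

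The treated cells had received 1 uM retinoic acid with forskolin, at a concentration not given in the sources used here, and the control cells 0.1% DMSO. All cells were early passage cells, seeded in DMEM/F12 with N2 supplement at 1000 per square centimetre, and were kept with compound or solvent for 4 days. The other groups of the series were cells kept with the small molecule KHS101 at 5 uM or 1.7 uM. The series design describes the positive control as retinoic acid only, and no group received retinoic acid or forskolin alone, so the parts of the 2 agents cannot be told apart. Each group was 1 array, so no difference below has a replicate check or a test, and precision is limited by this number of arrays.

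Retinoic acid is a derivative of vitamin A that binds nuclear receptors of the RAR family; paired with RXR receptors, these sit at response elements in target genes and turn them on when the ligand arrives. Cells limit the signal by making enzymes that break retinoic acid down or return its precursor to storage, and several of those enzymes are receptor targets themselves. Forskolin activates adenylyl cyclase, which raises cyclic AMP, activates protein kinase A and leads to phosphorylation of CREB at cyclic AMP response elements. Both agents have long been used to push cultured hippocampal progenitors out of division and into neuronal or glial fates.

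The promoter that the retinoid result turns on is that of Cyp26a1, shown for its response element. RefSeq's window for the start of this gene (assembly GRCr8, plus strand, chr1:244883572-244883821) covers the 250 bases upstream. Capitals mark a pair of receptor hexamers in the same direction with 5 bases between them, read on the opposite strand, at positions -92 to -76 from the start.
Cyp26a1: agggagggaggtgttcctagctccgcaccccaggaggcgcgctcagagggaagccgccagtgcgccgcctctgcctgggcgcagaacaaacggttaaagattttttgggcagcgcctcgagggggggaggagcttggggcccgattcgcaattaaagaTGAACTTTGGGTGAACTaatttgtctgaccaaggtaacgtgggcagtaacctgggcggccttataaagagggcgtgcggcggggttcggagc

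For Rarb, which encodes a retinoic acid receptor, the same arrangement of hexamers lay at bases 25 to 41 after the annotated start (GRCr8, plus strand, chr15:11336409-11336438), again in capitals.
Rarb: cgggaagGGTTCACCGAAAGTTCActcgca

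Of the 8535 measured genes, 370 were at least 2-fold higher with retinoic acid and forskolin than in DMSO (4.34% of measured genes) and 269 were at least 2-fold lower (3.15%). Large differences were mostly upward: 72 genes were 4-fold or more higher against 8 lower, and 16 were 8-fold or more higher against 0 lower. The median difference over all measured genes was -0.03, and the 5th and 95th percentiles were -0.88 and 0.93. For 43 of the higher and 11 of the lower genes 1 array was at the floor, so their differences are lower bounds, written "at least".

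**Figure D1:**
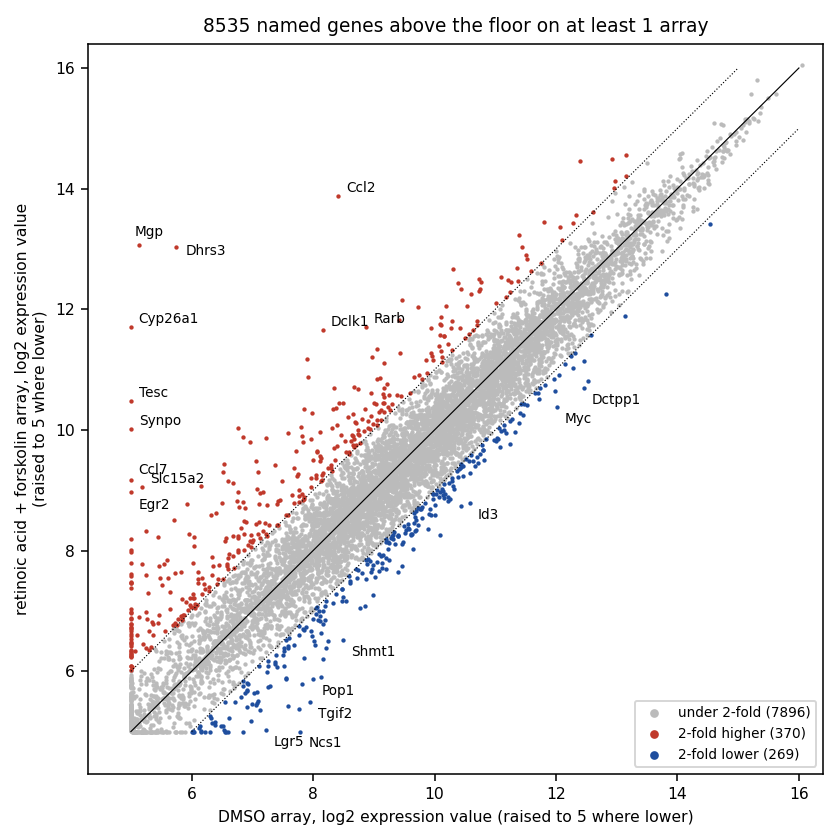
Log2 expression values of the 8535 measured genes on the DMSO array (horizontal axis) and the retinoic acid with forskolin array (vertical axis), both raised to 5 where lower; the solid line marks equal values and the dotted lines 2-fold. The 370 higher genes (red) reach farther from the line than the 269 lower genes (blue), and genes on the left edge were at the floor in DMSO.

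The 4 arrays shared almost 1 distribution of values, with a median gap of 0.06 between sorted columns at the same rank. A shift of all genes in 1 direction could therefore not be seen. Between 8389 and 8471 named genes were above the floor per array. The 12 measured reference genes had a median difference of 0.02 with 0 past 2-fold, and ranged from -0.99 for the transferrin receptor Tfrc to 0.41 for Polr2a. Control probe sets at the 3′ end minus those at the 5′ end of beta-actin differed by 1.37 on the treated and 1.26 on the DMSO array, so RNA quality was close by this measure.

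The cell labels were set against marker genes. Nes was at 10.67 with retinoic acid and 11.36 in DMSO, Sox2 at 13.81 and 14.01, and Fabp7 at 15.09 and 14.59. Vim, from the same progenitor markers, was at 13.42 and 14.53, 2.16-fold lower. The progenitor markers Pax6, Hes5 and Prom1 were below the floor on all 4 arrays. Of 9 oligodendrocyte lineage markers with a name on the array, 8 were above the floor with retinoic acid and 7 in DMSO. Olig1, Olig2, Sox10 and Pdgfra were among them, and the DMSO culture thus already held high levels of these lineage transcripts. The marker above the floor with retinoic acid but not in DMSO was Mog, at 5.03 and so barely above it. Cspg4 was below the floor on all 4. Of 8 astrocyte markers 3 were above the floor on each array, and Gfap, Aqp4, Aldh1l1, Slc1a2 and Gja1 were below it on all 4. Of 7 neuron markers 4 were above the floor on each array; Dcx, Stmn2 and Rbfox3 were below it on all 4. All 7 microglia markers, Aif1, Itgam, Csf1r, Cx3cr1, Cd68, C1qa and Ptprc, and all 3 ependymal markers were below the floor on every array. Of 8 fibroblast markers 2 were above the floor with retinoic acid (Postn and Twist1) and 1 in DMSO, while Col1a1, Col1a2, Col3a1, Dcn, Lum and Foxc1 were below it throughout. Of 5 named vascular markers 2 were above the floor with retinoic acid and 1 in DMSO: Acta2 was above it on both, and the VEGF receptor Kdr was at 6.54 with retinoic acid and below the floor on the other 3 arrays. Pecam1, Pdgfrb and Rgs5 were below it throughout. Here and below, fewer cells of a type and less RNA per cell cannot be told apart in bulk RNA.

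The first group of genes asks how far the known retinoid response was present. That response was led by Cyp26a1 and Dhrs3, which remove retinoic acid or its precursor, together with 1 receptor. Cyp26a1, the cytochrome that oxidises retinoic acid, was at 11.70 with retinoic acid and below the floor on the DMSO array and on both KHS101 arrays, a difference of at least 104-fold. Dhrs3, which reduces retinaldehyde back to retinol, was at 13.03 against 5.74 in DMSO, 156-fold higher. The Dhrs3 transcript was also well above DMSO on the KHS101 arrays, at 10.85 and 10.68 for 5 and 1.7 uM, whereas Cyp26a1 was not.

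Rarb was at 11.70 with retinoic acid, 8.87 in DMSO, 10.73 with KHS101 at 5 uM and 10.84 at 1.7 uM. It was 7.13-fold higher than DMSO, and both KHS101 arrays lay between the 2. The other receptor genes differed less: Rarg was at 9.71 against 9.03, Rara at 6.80 on both arrays and Rxrb at 6.92 against 6.63. Nrip1, a corepressor of nuclear receptors, was at 8.27 against 6.86 and 2.67-fold higher.

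These 4 genes, all higher, were the only ones past 2-fold among 19 measured of 46 in the retinoid list. The list median was 0.13, and over all measured genes 4.34% were higher and 3.15% lower. Cyp26b1, the second oxidase of retinoic acid, did not follow Cyp26a1. It was already at 11.29 in DMSO and at 11.03 with retinoic acid, against 8.17 and 9.42 with KHS101 at 5 and 1.7 uM. The synthesis enzymes Aldh1a3 (11.13 against 11.20) and Rdh10 (6.94 against 7.36), the carrier Fabp5 (13.66 against 14.32) and the homeobox genes Meis1 (8.20 against 7.83) and Meis2 (8.45 against 8.23) were all within 2-fold. The retinoid genes past 2-fold were thus Cyp26a1, Dhrs3, 1 receptor and 1 corepressor.

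The cyclic AMP list gave few differences at 4 days. Of 34 measured members of 66, 1 was higher and 1 lower, where 4.34% and 3.15% of all measured genes were. The median was 0.16. Plat, tissue plasminogen activator, was at 10.69 against 8.34 and 5.09-fold higher. Nfil3, a bZIP repressor, was at 8.36 against 9.57 and 2.32-fold lower, while it was above DMSO on both KHS101 arrays (10.85 and 10.40). Genes that often serve as a readout of CREB stayed within 2-fold: Crem was at 9.87 against 9.31, the phosphodiesterase Pde4b at 11.15 against 10.44, Fos at 10.00 against 9.19, Nr4a1 at 10.37 against 10.94, Per1 at 7.18 against 6.91 and Sik1 at 6.42 against 6.26. The coactivator Crtc1 (6.53 against 5.63), the inhibitor Pkig (12.18 against 11.32), the cyclase Adcy2 (7.91 against 7.09) and the cyclic AMP-activated exchange factor Rapgef3 (9.72 against 8.88) came closest to 2-fold.

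Among 13 measured immediate early factors 2 were higher and 1 lower, where 4.34% and 3.15% of all measured genes were. Egr2, a zinc finger factor of early growth response, was at 8.97 and below the floor in DMSO, at least 15.7-fold higher. It was also above the floor with KHS101, at 8.12 and 7.12. Egr1 was at 7.97 against 6.77, 2.30-fold higher. Myc went the other way, at 10.38 against 12.02 and 3.12-fold lower, and it was at 12.10 and 11.73 on the KHS101 arrays. The treated culture was the lowest of the 4 for Myc.

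Beside Dhrs3 and Cyp26a1, large differences were found outside both pathway lists. Mgp, matrix Gla protein, an inhibitor of calcification, was at 13.06 against 5.13, 245-fold higher, and below the floor with KHS101. Its DMSO value was close to the floor, so the size of this fold is uncertain. Ccl2, a monocyte chemoattractant, was at 13.88 against 8.41, 44.2-fold higher, with 10.97 and 11.09 on the KHS101 arrays. The related chemokine Ccl7 was at 9.18 and below the floor on the other 3 arrays, at least 18.1-fold higher. Ccl2 also stands in the microglia and macrophage list, but the 7 defining microglia markers were below the floor on every array.

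Tesc, tescalcin, an EF-hand calcium-binding protein, was at 10.48 and below the floor in DMSO, at least 44.6-fold higher. Synpo, the actin-associated protein synaptopodin, was at 10.01 and below the floor in DMSO, at least 32.3-fold higher. Tesc was at 7.43 and 7.19 and Synpo at 8.11 and 8.42 with KHS101 at 5 and 1.7 uM, between the other arrays. Slc15a2, a transporter of short peptides, was at 9.06 against 5.18, 14.7-fold higher, and at 5.51 and 5.70 with KHS101, close to DMSO. Of the nuclear receptors, Thrb, a thyroid hormone receptor, was at 8.28 against 5.96, 4.99-fold higher, and at 5.95 and 5.87 with KHS101. Further transcription factors were Maf (9.42 against 7.37, 4.13-fold), Tbx2 (7.30 against 5.28, 4.05-fold) and Zbtb20 (9.03 against 7.07, 3.88-fold).

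**Figure D2:**
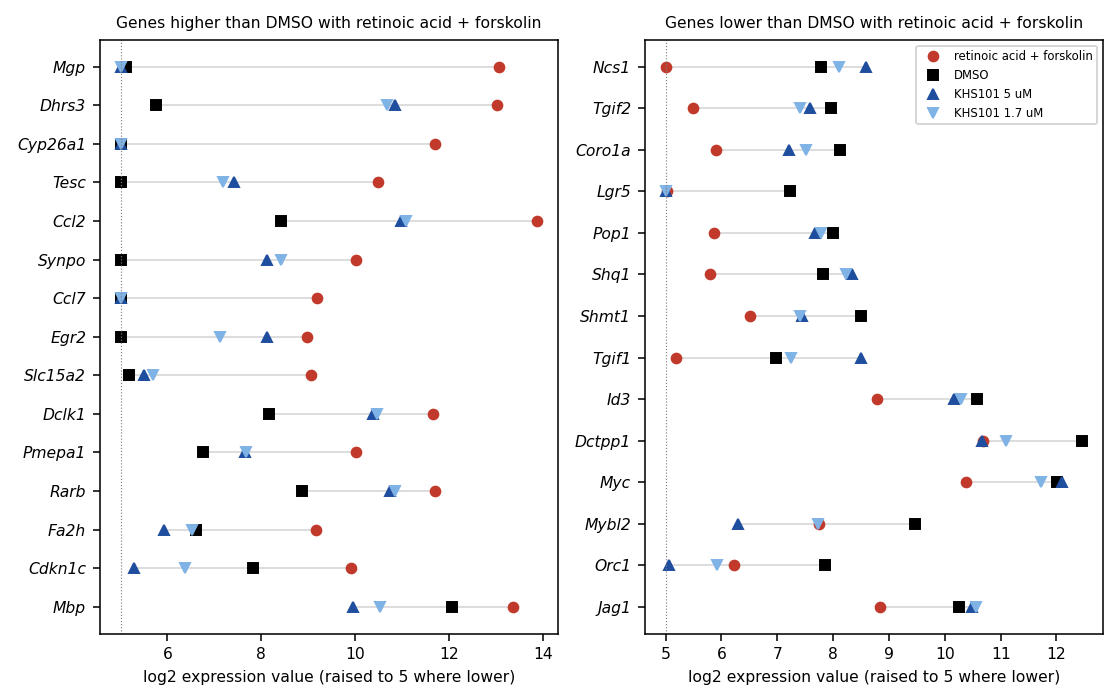
Log2 expression values, raised to 5 where lower (dotted line), of genes named in the text on the 4 single arrays; symbols give the treatment and the grey line joins the lowest to the highest array. Mgp, Cyp26a1 and Ccl7 were high on the retinoic acid with forskolin array alone, while for Rarb, Dclk1, Tesc and Synpo the KHS101 arrays lay between it and DMSO.

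Neuronal genes were asked next, since the series studies neuronal differentiation. In the list of neuronal commitment and immature neurons, 3 of 21 measured members were higher and 1 lower, with a median of 0.02. The shares over all measured genes were 4.34% and 3.15%. Dclk1, a microtubule-associated kinase of young neurons, was at 11.65 against 8.17, 11.2-fold higher, with 10.37 and 10.46 on the KHS101 arrays. Tubb3, a neuronal tubulin, was at 9.98 against 8.85 and 2.20-fold higher. The adhesion molecule Ncam1 was at 11.60 against 10.56 and 2.05-fold higher (just under 2-fold as the median of its probe sets), while Sox11, a factor of early neurons, was at 7.17 against 8.22 and 2.08-fold lower. Gap43, a growth cone protein, was at 11.52 against 12.44, and Bcl11a at 6.42 against 7.40, both lower and within 2-fold, though Bcl11a passed it after quantile normalisation. The early neuronal markers therefore did not move in 1 direction.

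Of 31 measured cytoskeletal and synaptic genes, 4 were higher and 2 lower, where 4.34% and 3.15% of all measured genes were. The median was 0.28, with 23 above 0, while 52.5% of all measured genes lay below 0. Besides Synpo the higher ones were the glutamate receptor subunit Gria2 (10.10 against 8.99), Ndrg4 (9.85 against 8.68) and the scaffold Dlg4 (7.55 against 5.60). The other measured probe set of Dlg4 differed by 0.01 only. Ncs1, a neuronal calcium sensor, was below the floor with retinoic acid and at 7.79 in DMSO, at least 6.92-fold lower, and at 8.58 and 8.11 with KHS101. Camk2b was at 7.46 against 8.61, 2.22-fold lower, and at 9.78 and 9.98 with KHS101. For Ncs1 and Camk2b the treated culture was the lowest of the 4.

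Of 10 measured sorting receptors and genes of neurotrophin signalling 4 were higher, against 4.34% of all measured genes, and 0 lower. The median was 0.82, or 0.10 when all named members were taken without a floor. Sorcs2, a sorting receptor that binds neurotrophin precursors, was at 8.33 against 5.25, 8.47-fold higher, and at 8.99 and 9.08 with KHS101. The GDNF family receptors Gfra1 (10.08 against 8.39, 3.24-fold) and Gfra2 (9.26 against 8.15, 2.16-fold) and the neurotrophin-3 receptor Ntrk3 (6.07 against 5.02, 2.08-fold) were higher too, the last not after quantile normalisation. In the axon guidance list 3 of 23 were higher and 0 lower: Sema5a (12.05 against 10.19), Sema6d (9.36 against 8.24) and the ephrin receptor Ephb3 (10.17 against 9.12).

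In the oligodendrocyte list 8 of 24 measured genes were higher and 0 lower, 22 of 24 lay above 0, and the median was 0.54. Over all measured genes 4.34% were higher and 3.15% lower, and 52.5% lay below 0. Mbp, myelin basic protein, was at 13.36 against 12.07 in DMSO and at 9.96 and 10.54 with KHS101 at 5 and 1.7 uM. Its other measured probe sets differed by 1.68 and, near the floor, by 0.36. Fa2h, which hydroxylates fatty acids of myelin lipids, was at 9.15 against 6.61, 5.85-fold higher. Enpp2, the secreted enzyme autotaxin, was at 14.49 against 12.92, 2.97-fold higher. The regulators Myrf (10.03 against 8.90) and Zfp488 (11.20 against 10.13) and the sulphotransferase Gal3st1 (11.13 against 10.12) were 2.18-fold, 2.11-fold and 2.01-fold higher. The lineage factors themselves differed little: Olig2 was at 11.12 against 11.08, Olig1 at 14.25 against 14.09 and Sox10 at 12.94 against 12.67. The list's own median was -1.13 for KHS101 5 uM and -0.58 for 1.7 uM against the same DMSO array. The 9 named oligodendrocyte markers had a mean of 10.64 with retinoic acid and 10.26 in DMSO; the part of cell composition in these differences was not tested.

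Of 14 measured astrocyte genes 6 were higher and 3 lower, with a median of 0.68, or 0.03 over all named members without a floor; over all measured genes 4.34% were higher and 3.15% lower. Cp, the copper carrier ceruloplasmin, was at 9.30 against 6.52, 6.90-fold higher. S100b, a calcium-binding protein, was at 14.21 against 13.15, and the aldolase Aldoc at 13.42 against 12.28. The receptor Fgfr3 (10.58 against 9.24), Ndrg2 (11.16 against 9.87) and the adhesion molecule Hepacam (9.89 against 8.66) were higher by 2.34-fold to 2.52-fold. The 3 lower genes were the intermediate filament Vim (13.42 against 14.53, 2.16-fold), Id3 (8.79 against 10.58, 3.46-fold) and the hyaluronan receptor Cd44 (5.10 against 6.14, 2.07-fold). The list thus held genes past 2-fold in both directions. Since Gfap and 4 other astrocyte markers were below the floor on all arrays, these values describe a part of the astrocyte set only.

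Progenitor genes gave 1 higher and 3 lower of 21 measured, with a median of -0.18. Lgr5, a receptor for R-spondins and a Wnt target, was at 5.02 against 7.22, 4.58-fold lower, and was close to or below the floor with KHS101 as well. Jag1, a Notch ligand, was at 8.85 against 10.25, 2.64-fold lower, and at 10.49 and 10.56 with KHS101. Hey1, a Notch target, was at 10.57 against 9.45, 2.17-fold higher. The Notch receptor and target genes Notch1 and Hes1 differed by 0.15 and 0.31. Of 19 measured Wnt genes 2 were higher and 3 lower, with a median of 0.08, where 4.34% and 3.15% of all measured genes were. The receptor Fzd8 was at 9.96 against 7.58, 5.18-fold higher, and the feedback gene Axin2 at 7.34 against 6.28, 2.08-fold higher, though not after quantile normalisation. The lower ones were Lgr5, Cd44 and the secreted inhibitor Sfrp4, at 6.95 against 8.04, 2.13-fold lower.

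In the BMP and TGF-beta list 2 of 30 measured members were higher and 5 lower, with a median of 0.01. Over all measured genes 4.34% were higher and 3.15% lower. Of the 4 Id genes, which encode inhibitors of DNA binding and are known targets of BMP signalling, 2 were past 2-fold. Id3 was at 8.79 against 10.58, 3.46-fold lower, and Id2 at 8.11 against 9.46, 2.55-fold lower. Id1 was below the floor with retinoic acid and at 5.84 in DMSO, which bounds its difference at 1.79-fold or more lower, whereas Id4 differed by 0.40. Smad9, a BMP receptor SMAD, was at 5.75 against 7.28, 2.90-fold lower.

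The corepressors of TGF-beta and retinoid signalling Tgif2 (5.48 against 7.96, 5.55-fold) and Tgif1 (5.18 against 6.98, 3.48-fold) were lower as well, although with a floor of 6 Tgif1 was within 2-fold. Pmepa1, an inhibitor of TGF-beta signalling, was at 10.02 against 6.76, 9.62-fold higher, and the pseudoreceptor Bambi was at 10.35 against 8.85, 2.82-fold higher. The inhibitors did not share a direction, and Smad7, Smurf1 and Smurf2 differed by 0.22, 0.08 and 0.26. All of Id2, Id3, Smad9, Tgif1 and Tgif2 lay below the other 3 arrays. The ligands Bmp4 (8.15 against 7.53) and Bmp7 (8.29 against 9.16) were within 2-fold.

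Genes of growth and division lay below DMSO throughout their lists. In the ribosome biogenesis list, which holds nucleolar factors and RNA polymerase I subunits, all 66 measured members lay below 0, from -2.14 to -0.02, against 52.5% of all measured genes. Of the 66, 13 were 2-fold lower and 0 higher, with a median of -0.77; over all genes 3.15% were lower. Pop1, a subunit of the RNase that trims transfer and ribosomal RNA, was at 5.87 with retinoic acid, 4.40-fold below DMSO, and at 7.68 and 7.78 with KHS101. Shq1, an assembly factor of box H/ACA particles, was at 5.79 against 7.82, 4.09-fold lower. Its client Dkc1, the pseudouridine synthase dyskerin, was at 9.82 against 11.01, and Nhp2, another protein of the same particles, at 11.89 against 13.14. The polymerase I subunits Polr1b (8.45 against 9.57) and Polr1e (9.59 against 10.60) and the nucleolar protein Nolc1 (10.42 against 11.53) were 2.18-fold, 2.01-fold and 2.16-fold lower. With KHS101, against the same DMSO array, the list had medians of 0.34 at 5 uM and 0.03 at 1.7 uM. Polr1b was at 10.40 and 10.07 there, and Nolc1 at 12.05 and 11.71.

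The enzymes of serine, one-carbon and folate metabolism, which supply nucleotide and methyl synthesis, gave a like picture. Of 23 measured 7 were lower and 0 higher, 22 lay below 0, and the median was -0.84. Of all measured genes 3.15% were lower and 52.5% lay below 0. Shmt1, the cytosolic serine hydroxymethyltransferase, was at 6.52 against 8.50, 3.94-fold lower. Its mitochondrial partner Shmt2 was at 10.43 against 11.47, and Mthfd2, the next mitochondrial enzyme, at 9.86 against 11.02. Both were above DMSO with KHS101 at 5 uM, Shmt2 at 12.89 and Mthfd2 at 12.39. Ahcy, which clears the product of methyl transfer, was at 10.11 against 11.39, 2.44-fold lower. The list medians with KHS101 were 0.38 and 0.01. Dctpp1, which removes damaged deoxynucleotides and stands outside the list, was at 10.69 against 12.46, 3.42-fold lower.

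All 52 measured DNA replication genes also lay below 0, and 18 of them were 2-fold lower with a median of -0.86. Of all measured genes 52.5% lay below 0 and 3.15% were lower. E2f2, an activator of S phase genes, was at 8.35 against 9.70, and Tyms, thymidylate synthase, at 6.39 against 7.52. Gins1 (9.97 against 11.09) and Gins3 (9.12 against 10.24) encode subunits of the replicative helicase complex. In the mitosis list all 57 lay below 0 and 11 were 2-fold lower, with a median of -0.71; Mybl2 was at 7.75 against 9.46, 3.27-fold lower, and Foxm1 at 8.88 against 10.08, 2.29-fold lower. Both are transcription factors of the dividing cell. Another probe set of Mybl2 differed by -0.79 and another of Foxm1 by -0.93, both within 2-fold. The medians with KHS101 at 5 and 1.7 uM were -2.12 and -1.19 for replication and -1.51 and -1.18 for mitosis. By these medians the KHS101 cultures were, in DNA replication and mitosis genes, farther below DMSO than the retinoic acid culture, and in ribosome biogenesis genes they were not below it.

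**Figure D3:**
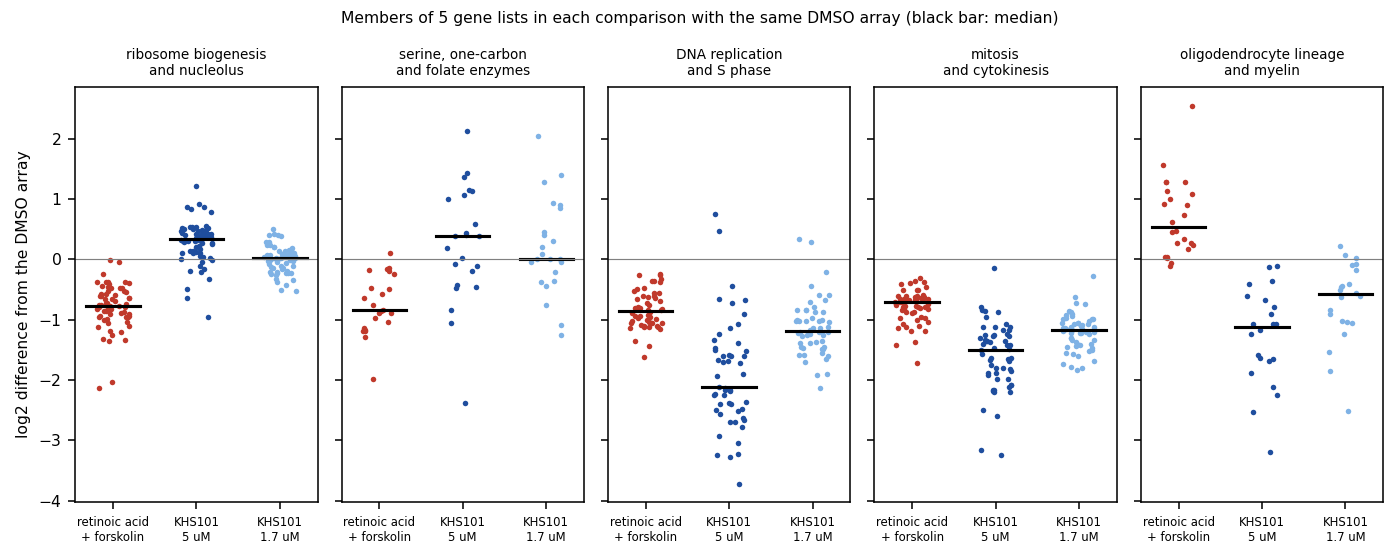
Log2 differences from the DMSO array for measured members of 5 gene lists with retinoic acid and forskolin (red), KHS101 5 uM (dark blue) and KHS101 1.7 uM (light blue), 1 point a gene and the median as a black bar; the 3 comparisons share the DMSO array. Ribosome biogenesis members have medians of -0.77, 0.34 and 0.03, and oligodendrocyte members 0.54, -1.13 and -0.58.

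The list of CDK inhibitors and cell cycle exit also holds G1 cyclins and kinases. Of its 24 measured members 3 were higher, 1 of the 3 being a cyclin, and 0 lower. Over all measured genes 4.34% were higher and 3.15% lower. Cdkn1c, the CDK inhibitor p57, was at 9.91 against 7.82, 4.23-fold higher, and at 5.28 and 6.37 with KHS101, which lay below DMSO. Cdkn1a, the inhibitor p21, went otherwise: it was at 7.69 against 7.33 and reached 10.87 and 10.33 with KHS101. Cdkn2b, an inhibitor of CDK4, was at 6.94 against 5.86, which fell under 2-fold after quantile normalisation, and Ccnd2, a D-type cyclin, at 12.51 against 10.73. For Cdkn1c the treated culture was the highest of the 4, and for Cdkn1a it was close to DMSO.

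Of 33 measured matrix genes 7 were higher and 2 lower, where 4.34% and 3.15% of all measured genes were. The median was 0.39, but over all named members without a floor it was 0.03, near the 0.02 of all named genes. Timp3, a metalloproteinase inhibitor, was at 11.33 against 9.06, 4.84-fold higher, and Col5a1, a fibrillar collagen chain, at 9.48 against 7.07, 5.32-fold higher. Sdc1, the proteoglycan syndecan-1, was at 6.21 against 8.16, 3.85-fold lower, and Igfbp3 at 8.61 against 9.92, 2.48-fold lower. Of 24 measured adhesion genes 5 were higher and 0 lower, with a median of 0.45 (0.03 without a floor): the cadherin family member Cdhr2 (9.89 against 6.84), the integrin Itgb3 (10.22 against 8.58), Ncam2 (7.62 against 5.72), Pcdh9 (10.38 against 9.24) and Nfasc (9.81 against 7.84). Nfasc has a probe set that did not share this, with a difference of -0.29, and another at 2.29. Mgp, Col5a1 and Postn, 3 of the 7 measured genes of the fibroblast list, were higher, while the collagens Col1a1, Col1a2 and Col3a1 were below the floor on all arrays.

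Among the stress lists, the integrated stress list was near the median of all genes here. It had 0 of 33 higher and 3 lower, where 4.34% and 3.15% of all measured genes were. Its median was 0.08, against 1.28 and 1.29 with KHS101 at 5 and 1.7 uM. Outside the integrated stress list, Hmox1, heme oxygenase 1, was at 5.16 against 6.39, 2.34-fold lower (within 2-fold with a floor of 6). It was at 11.83 and 9.46 with KHS101. Of 36 measured chaperones and heat shock genes 31 lay below 0, against 52.5% of all measured genes, with a median of -0.40. In this list 2 were lower and 1 higher, the small heat shock protein Cryab, at 10.26 against 8.66. Bag2, a cofactor of HSP70, was at 6.51 against 8.01, 2.84-fold lower.

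The next lists each held genes past 2-fold in both directions, where 4.34% of all measured genes were higher and 3.15% lower. Among glycolysis and hypoxia genes 5 of 37 were higher and 2 lower, led by the adenylate kinase Ak4 at 10.87 against 7.91, and the median was 0.04. In the cholesterol and fatty acid list 2 of 38 were higher and 1 lower, and in the NRF2 list 1 of 23 higher and 1 lower. Among p53 targets 2 of 12 were higher, with Sesn1 at 9.96 against 8.11, and 1 lower. Of 29 measured solute carriers 2 were higher and 2 lower; Slc6a15, a transporter of branched-chain amino acids, was at 7.65 against 9.41, 3.38-fold lower, and at 11.67 and 10.89 with KHS101. The calcium and actin list gave 6 of 34 higher and 3 lower, and Coro1a, which binds actin, was at 5.90 against 8.13, 4.68-fold lower.

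**Figure D4:**
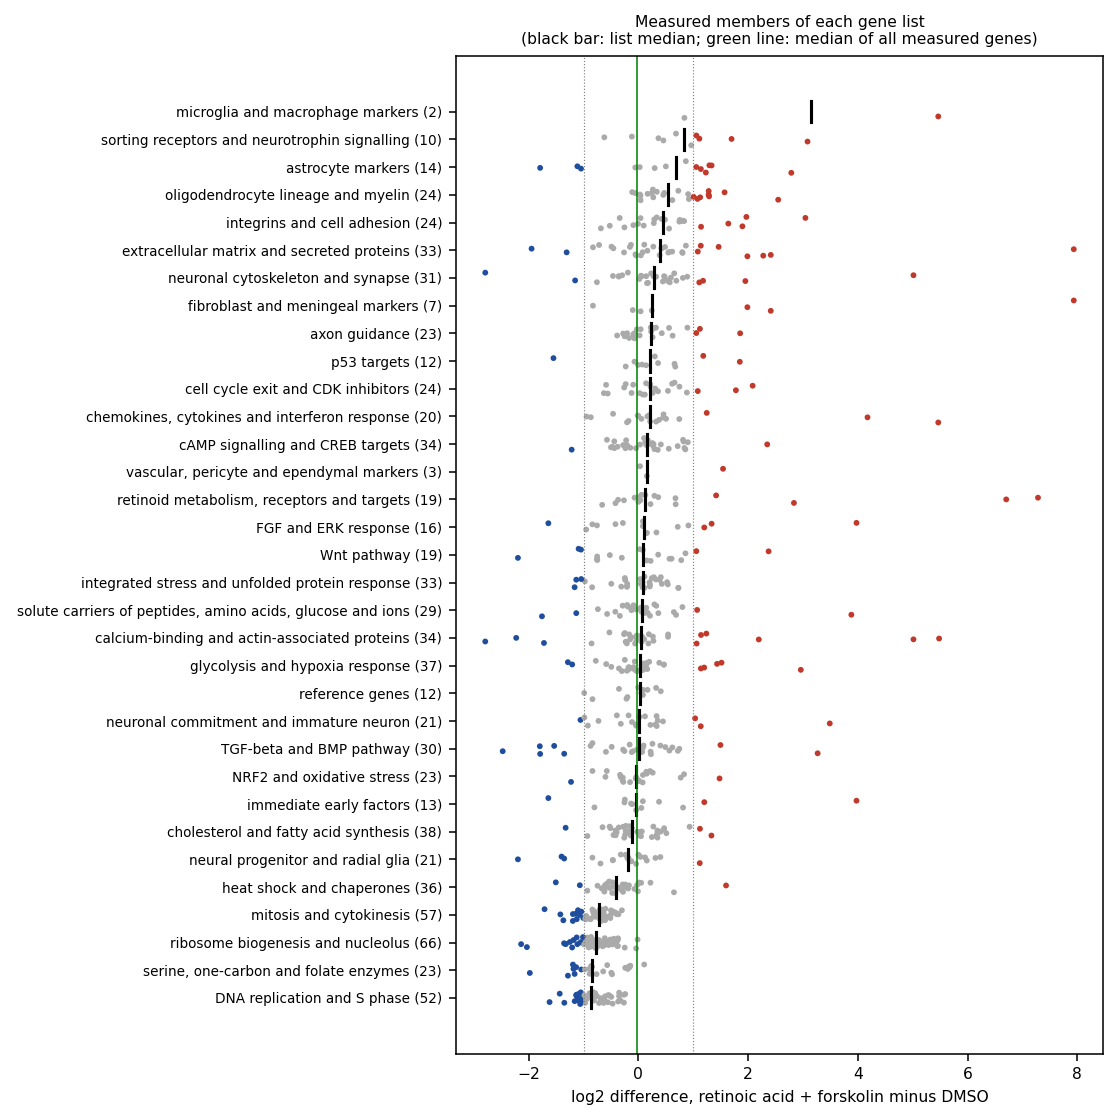
Log2 difference, retinoic acid with forskolin minus DMSO, for the measured members of 33 gene lists, 1 point a gene; red and blue mark genes at least 2-fold higher or lower, black bars the list medians, the green line the median of all measured genes (-0.03) and dotted lines 2-fold, with the number of measured genes in brackets. DNA replication (-0.86), one-carbon (-0.84), ribosome biogenesis (-0.77) and mitosis (-0.71) have the lowest medians.

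Promoters were then searched for the elements through which the 2 agents and the cell cycle act. RefSeq windows (GRCr8) were found for 7239 of the 8535 measured genes, 297 of the higher and 225 of the lower ones, and both strands of the 250 bases upstream were read. Retinoid elements were pairs of the hexamer AGGTCA, the variant AGTTCA, the variant GGTTCA or the variant GGGTCA in the same direction with 1, 2 or 5 bases between them. A gap of 5 was found in 4 genes, 1 of them higher (Cyp26a1, printed above) and 0 lower. A gap of 2 was found in 6 genes, 2 of them higher (Plekhm3 and Zfp648), and a gap of 1 in 17, 2 of them higher (Agmo and Ak4) and 1 lower (Smyd5). With the 50 bases after the start included, a gap of 5 was found in 5 genes, the added one being Rarb. Most higher genes had none of these letters in the window, which says nothing of elements elsewhere.

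The full cyclic AMP response element TGACGTCA stood in 2.02% of higher, 4.00% of lower and 3.47% of all these measured genes. Its part TGACG, which the full element contains, stood in 23.6%, 31.6% and 32.0%. The higher genes thus held no larger share of it than genes at large. Counted per window instead of per gene, the full element stood in 1.59% and TGACG in 18.2% of all 33469 RefSeq windows. Those windows include genes not measured here. A match of TGACG, in capitals and read on the opposite strand, is shown for the higher genes Egr2 (minus strand, chr20:21054476-21054535) and Dclk1 (plus strand, chr2:141782818-141782877).
Egr2: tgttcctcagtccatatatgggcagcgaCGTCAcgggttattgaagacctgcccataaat
Dclk1: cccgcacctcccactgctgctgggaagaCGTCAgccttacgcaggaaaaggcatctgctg

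E2F sites, searched as TTTCCCGC, TTTCGCGC, TTTGCCGC or TTTGGCGC, stood in 24 of 225 lower genes (10.7%), 2 of 297 higher genes (0.673%, Calcoco1 and Ndrg2) and 280 of 7239 measured genes (3.87%). Counted per window over all 33469 windows, with genes not measured here included, the share was 1.73%. The higher and lower genes were chosen by their values and no test was made of these shares. The lower genes below show the element, in capitals, in genes of deoxynucleotide synthesis, helicase, one-carbon metabolism and nucleolus: Tyms (minus strand, chr9:120776087-120776146), Gins1 (plus strand, chr3:160184860-160184919, sites on both strands that overlap), Shmt1 (minus strand, chr10:45990432-45990491) and Nolc1 (plus strand, chr1:254870109-254870168).
Tyms: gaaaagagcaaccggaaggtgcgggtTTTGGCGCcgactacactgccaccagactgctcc
Gins1: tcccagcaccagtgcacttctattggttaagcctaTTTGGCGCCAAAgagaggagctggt
Shmt1: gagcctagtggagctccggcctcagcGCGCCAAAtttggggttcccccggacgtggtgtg
Nolc1: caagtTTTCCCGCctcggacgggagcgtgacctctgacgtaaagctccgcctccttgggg

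The sole repeat measurement within an array was a gene's other probe sets, which share its RNA. For 143 of the 639 genes past 2-fold, 186 other probe sets were above the floor on at least 1 array; 178 differed in the same direction, 117 past 2-fold, and 0 past 2-fold in the opposite direction. The other 496 genes rest on 1 measured probe set, Rarb, Egr2, Synpo and Dclk1 among them. The clearest disagreement was Myh1, lower by 1.04 on the log2 scale on the probe set used, while 3 of its others lay at 0.91, 0.85 and 0.26. Cd44 was 2.07-fold lower on the probe set used, near the floor. Its other one was at 5.06 in DMSO and below the floor with retinoic acid, so its difference of -0.06 is a bound.

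**Figure D5:**
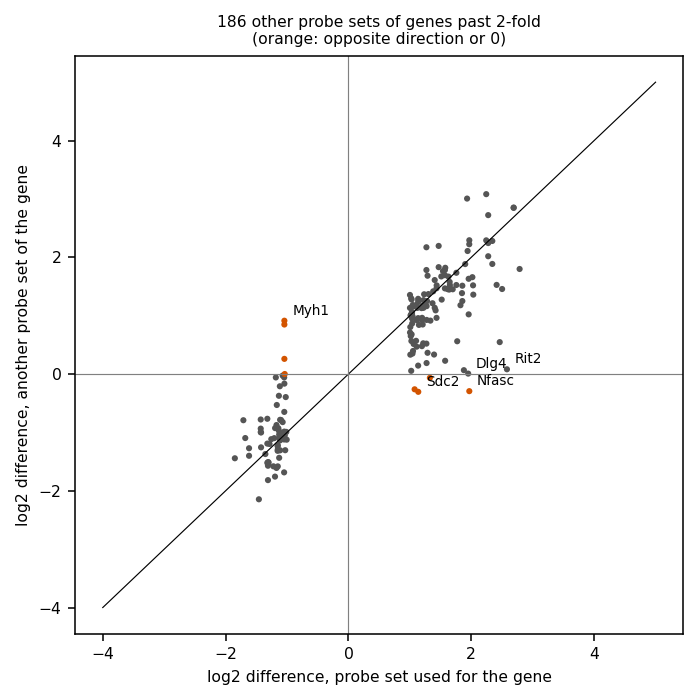
Log2 difference of the probe set used for a gene (horizontal axis) and of another measured probe set of the same gene (vertical axis), retinoic acid with forskolin minus DMSO, for 186 other probe sets; the line marks equal values. Grey points (178) share the direction and orange points (8) do not, and none of the 8 passed 2-fold.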

How the data were processed

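The authors deposited log2 expression values for 31099 probe sets on 4 Affymetrix rat arrays, 1 per group. GCRMA and R 2.6.2 are named, per the submitters' processing notes, without the step each served and without a genome build. Medians between 3.67 and 3.76 show that the scale is log2. Probe sets with no specific signal get low values from GCRMA, so values below 5 were raised to it, and differences from an array at the floor are bounds; the sorted columns differed by at most 0.19. Gene names came from the platform annotation: of 31042 probe sets that are not controls, 20826 had 1 symbol, 436 several and 9780 none here, and the latter kinds entered no gene count. Gene identifiers of 20758 matched RefSeq, which changed 0 symbols, and 4525 genes had several probe sets.

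Differences were log2 subtractions, with no test. The counting was checked on simulated data with large changes in genes well above the floor. That check does not reach calls near 2-fold, values at the floor or the spread between arrays. The members and the 33 gene lists were chosen with earlier results of these data known, and lists are described by counts and medians only. 4 further lists, in the closing section, were written after the values were seen. The text names genes from the 50 largest differences each way, the 25 largest bounds each way, list members past 2-fold, and all retinoid, cyclic AMP, neuronal commitment, progenitor and marker genes; Calcoco1, Plekhm3, Agmo, Smyd5, Myh1 and the other genes outside these lists were chosen after their values were seen. Alternatives were other floors, probe set rules, quantile normalisation, a 3-fold threshold and a both-arrays filter. Python 3.11.15, pandas 2.3.3, numpy 2.4.6 and matplotlib 3.10.9 were used.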

Additional observations from a re-analysis of the deposited data

Results flagged for a closer look

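The results above leave out probe sets without a gene name in the annotation used here. Of 9780 such probe sets 2499 were above the floor on at least 1 of the 2 arrays, and 167 of these were at least 2-fold higher with retinoic acid and forskolin (6.68%) and 54 lower (2.16%), beside 4.34% and 3.15% of named genes. The largest difference among them was 7.58 on the log2 scale for 1395388_at, at 13.07 with retinoic acid, 5.49 in DMSO and 8.37 and 8.75 with KHS101 at 5 and 1.7 uM. The next, 1398713_at, differed by 5.66, at 12.84 against 7.18 and at 8.78 and 9.01. Neither had a gene name in the annotation used here, and whether they belong to genes already named was not analysed here.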

How the results depend on the processing

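Requiring 3-fold in place of 2-fold left 134 genes higher and 34 lower and moved the share of higher among called genes from 57.9% to 79.8%. Under the other 7 alternatives, which were a floor of 4 or 6 or none, other rules for a gene's probe set, quantile normalisation and a filter on both arrays, the counts lay between 316 and 456 higher and 233 and 313 lower, within 1.5 times those reported. With quantile normalisation 346 of the 370 higher and 264 of the 269 lower genes were kept. Of the named genes 1 changed sign: Myh1, at 0.26 as the median of its probe sets. The median of the ribosome biogenesis list lay between -0.77 and -0.75, that of DNA replication between -0.88 and -0.83, and that of one-carbon enzymes between -0.84 and -0.61, under every alternative with a median. The oligodendrocyte median lay between 0.30 and 0.67. With a floor of 6, Kdr, Postn, Ntrk3, Tgif1, Cdkn2b, Hmox1, Zfp648 and Cd44 were within 2-fold. No paired analysis was possible because each group is 1 array.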

Other observations

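Further gene groups were collected after the values were seen, from families rather than from the members' values. Over all measured genes 4.34% were higher, 3.15% lower and 52.5% below 0. Lysosomal enzymes and membrane proteins lay mostly above DMSO: 43 of 46 measured members had a difference above 0, 5 were 2-fold higher and 0 lower, and the median was 0.44, against 0.10 and 0.23 with KHS101 at 5 and 1.7 uM. The sulphatase Arsb was at 12.34 with retinoic acid and 10.44 in DMSO, 3.73-fold higher, and 10.41 and 10.76 with KHS101. The cathepsin Ctsf was at 7.31 against 5.64, 3.20-fold higher, and the cystine exporter Ctns at 8.48 against 7.10.

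Nucleoporins, the subunits of the nuclear pore, lay below 0 for all 29 measured members, against 52.5% of all measured genes. Of the 29, 5 were at least 2-fold lower, against 3.15% of all measured genes. Their median was -0.60, against -0.25 and -0.17 with KHS101. Of 35 measured tRNA-modifying enzymes 29 lay below 0, 8 were lower and 1 higher, with a median of -0.37. Mettl1 and Wdr4, the subunits of the enzyme that makes 7-methylguanosine in tRNA, were at differences of -1.34 and -1.32, and Trmt6 and Trmt61a, the subunits of a methyladenosine enzyme, at -1.13 and -1.29. Of 14 measured polyamine genes 4 were lower and 0 higher, with a median of -0.34. The lowest difference was that of Sat1, an acetyltransferase of polyamine turnover, at -1.57. Odc1, the first enzyme of polyamine synthesis, was at 11.03 against 12.28, and the spermidine and spermine synthases Srm (10.65 against 11.98) and Sms (10.29 against 11.40) were lower too. These synthesis enzymes were above DMSO with KHS101 at 5 uM, Odc1 at 12.66, Srm at 12.49 and Sms at 11.76.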
